A study of Rattus norvegicus with 8 samples.

Results

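The cytochrome P450s described here were Cyp2a3, Cyp2b1, Cyp2f4, Cyp2e1, Cyp2s1, Cyp2c11, Cyp2c13, Cyp4b1, Cyp1a1 and Cyp1b1, enzymes that convert inhaled or ingested carcinogens into reactive products. They were the 10 genes named for this purpose, and their probes were those whose RefSeq accession in the scanner files belonged to one of them. There were 11 such probes among the 24684 on the array, since Cyp2e1 had 2 of them, and the 10 genes were among 13903 genes that could be named. Expression was measured in male F344 rats of the NNK-induced lung cancer model at week 95 on an Arraystar rat lncRNA array, which also carries mRNA probes and which holds 1 colour (Cy3). The 3 lung tumor samples and the 3 matched normal lung tissues all came from rats treated with NNK, and lung of an untreated rat was not analysed here. The 2 blood samples were clots of whole blood, 1 from the control group and 1 from the NNK treatment group. For the sample from NNK blood, 1 label (its description) was that of a lung tumor, and the other labels said blood, so it was treated as blood. The tissues are bulk samples, so fewer cells of a type and less RNA per cell cannot be told apart.

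P450s are heme enzymes of the endoplasmic reticulum that insert oxygen into their substrates with electrons from the reductase Por. NNK, the nicotine-derived nitrosamine used in this model, becomes a DNA-damaging agent when a P450 hydroxylates a carbon next to its nitroso group. Much of the P450 activity of the lung lies in club cells of the airways and in type 2 alveolar cells, while many P450s of families 2 and 3 are best known from liver.

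The promoters of 4 genes are shown because these genes carry the contrast described next: signal of Cyp2e1, Cyp2c11 and Cyp2c13 fell together in lung tumor and that of Cyp2f4 rose. Each is the stretch of 250 bases before the annotated start, from RefSeq on the rat build GRCr8, with matches to 3 motifs, spelled out after the sequences and searched on both strands, in capitals; no matches overlapped. The regions are chr1:205269717-205269966 on the plus strand, chr1:246174966-246175215 on the plus strand, chr1:248787189-248787438 on the minus strand and chr1:91543518-91543767 on the plus strand.
Cyp2e1: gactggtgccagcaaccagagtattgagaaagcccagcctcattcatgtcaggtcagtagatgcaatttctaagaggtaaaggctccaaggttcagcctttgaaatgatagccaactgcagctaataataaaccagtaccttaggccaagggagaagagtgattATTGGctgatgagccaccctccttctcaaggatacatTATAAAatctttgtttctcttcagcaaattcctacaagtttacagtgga
Cyp2c11: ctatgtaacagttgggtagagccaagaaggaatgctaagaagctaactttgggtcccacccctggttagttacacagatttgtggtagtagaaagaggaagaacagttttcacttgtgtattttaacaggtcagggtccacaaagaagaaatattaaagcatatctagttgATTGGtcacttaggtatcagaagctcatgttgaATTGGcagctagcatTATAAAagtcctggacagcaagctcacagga
Cyp2c13: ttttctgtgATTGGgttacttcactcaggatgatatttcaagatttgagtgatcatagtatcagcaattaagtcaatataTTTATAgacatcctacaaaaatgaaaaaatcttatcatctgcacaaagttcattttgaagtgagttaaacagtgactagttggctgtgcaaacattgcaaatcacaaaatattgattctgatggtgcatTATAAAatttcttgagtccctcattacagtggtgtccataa
Cyp2f4: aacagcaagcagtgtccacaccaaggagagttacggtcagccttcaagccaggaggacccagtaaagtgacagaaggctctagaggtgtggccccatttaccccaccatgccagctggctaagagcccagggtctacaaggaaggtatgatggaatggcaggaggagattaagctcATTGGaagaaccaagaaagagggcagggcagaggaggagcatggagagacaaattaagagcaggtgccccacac
Such windows were found for 9 of the 10 genes. Cyp1a1 had none, so its motifs are not known here. TATAAA, the letters of a TATA box, was present in 4 of the 9 windows (Cyp2a3, Cyp2e1, Cyp2c11 and Cyp2c13), against 12.9% of the 33469 promoter windows of the same length in the table. CCAAT was present in 5 of the 9, against 34.0% of all windows. GCGTG, the core of the element that the aryl hydrocarbon receptor binds, was present in 2 of the 9 (Cyp2b1 and Cyp1b1), against 25.9% of all windows. These are matches of letters and not measured binding sites.

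Before the results, 3 properties of the arrays matter for every value. The normal lung arrays differed from each other by 0.464 to 0.788 times the noise between repeated spots of 1 array, and tumor 2 from tumor 3 by 0.464 times, so these arrays differed by less than the spot noise and may not be independent tissues. Tumor 1 differed from tumors 2 and 3 by 3.01 and 3.34 times, and normal from tumor arrays by 8.33 to 12.7 times. Results are therefore given for 3 against 3 arrays, and for the members also with the 3 normal arrays as 1 sample and tumors 2 and 3 as 1 sample. In that second form the normal group is a single sample, assumed to vary like the 2 tumor samples that supply all the spread. Slide 1 held the 3 normal arrays and tumor 1 and slide 2 held tumors 2 and 3, so each difference was also taken within slide 1. The scanner software marked 15.9% to 25.3% of the bright spots of tumor arrays as outliers against 4.92% to 8.62% on normal lung arrays. The single spots of Cyp2a3, Cyp2b1 and Cyp4b1 were among the marked ones, and these 3 genes are given from a fit in which marked spots were kept.

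Signals below are log2 values after quantile normalization over the 6 lung arrays, and a probe was called up-regulated or down-regulated when it changed 2-fold or more with an adjusted p of 0.05 or less. With marked spots left out, 7 of the 11 probes were tested, of which 1 was called higher in lung tumor and 5 were called lower. Over all 12471 probes tested, 13.5% were called higher and 15.5% lower. With marked spots kept, 10 of the 11 probes were tested, 1 higher and 7 lower, against 13.5% higher and 14.4% lower of 15803 probes. Cyp1b1 did not pass the filter on dim probes, and Cyp1a1 passed it mainly through its normal lung arrays.

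The P450s of club cells and alveolar lung come first. Cyp2a3, expressed in rat lung and nasal tissue and an activator of NNK, had signals of 12.61, 12.60 and 12.48 in normal lung and 12.22, 12.21 and 12.13 in tumor. Every tumor array lay below every normal array, with a log2 fold change of -0.38 ± 0.063 (SE, n = 3 and 3; limma, adjusted p = 0.00336). This is a 1.3-fold difference, below the 2-fold threshold, so Cyp2a3 was not called. All 3 tumor spots of Cyp2a3 and its spot on normal 3 had an outlier mark. The difference of Cyp2a3 within slide 1 was -0.34. Counted with near-identical arrays once, the adjusted p was 0.281.

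Cyp2b1, a phenobarbital-inducible enzyme that is constitutively abundant in rat lung and also oxidizes NNK, had signals of 15.34, 15.36 and 15.44 in normal lung and 14.23, 14.15 and 14.27 in tumor. The groups did not overlap and Cyp2b1 was down-regulated 2.24-fold, a log2 fold change of -1.16 ± 0.061 (limma, adjusted p = 3.6e-05). The Cyp2b1 spots of tumors 2 and 3 had an outlier mark. Within slide 1 the difference was -1.15. With near-identical arrays counted once the value was again -1.16 and the adjusted p 0.0521, which ends the call.

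Cyp2f4, the rat club cell enzyme that activates naphthalene and styrene, went the other way. Its signals were 13.65, 13.62 and 13.62 in normal lung and 14.77, 14.64 and 14.71 in tumor, with every tumor array above every normal array. Cyp2f4 was up-regulated 2.11-fold, a log2 fold change of 1.08 ± 0.056 (limma, adjusted p = 4.08e-05), and the difference within slide 1 was 1.14. The call rests on a fold close to the threshold. It was lost with a 75th percentile shift in place of quantile normalization, at 0.90, and with near-identical arrays counted once, at 1.09 and an adjusted p of 0.0637.

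Cyp4b1, which activates aromatic amines and 4-ipomeanol in lung, had signals of 17.43, 17.30 and 17.19 in normal lung and 15.60, 15.81 and 15.77 in tumor. Its log2 fold change was -1.58 ± 0.093, 2.99-fold lower in tumor (limma, adjusted p = 5.29e-05), and -1.71 within slide 1. With near-identical arrays counted once it was -1.61 with an adjusted p of 0.0384. All 3 tumor spots of Cyp4b1 had an outlier mark. Cyp2s1, an extrahepatic P450 of epithelia, had signals of 11.47, 11.38 and 11.52 in normal lung and 12.31, 12.02 and 12.09 in tumor. The groups did not overlap, but the difference of 0.68 ± 0.095 is 1.6-fold and was not called (limma, adjusted p = 0.00185; with near-identical arrays counted once, 0.72 and 0.143).

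**Figure D1:**
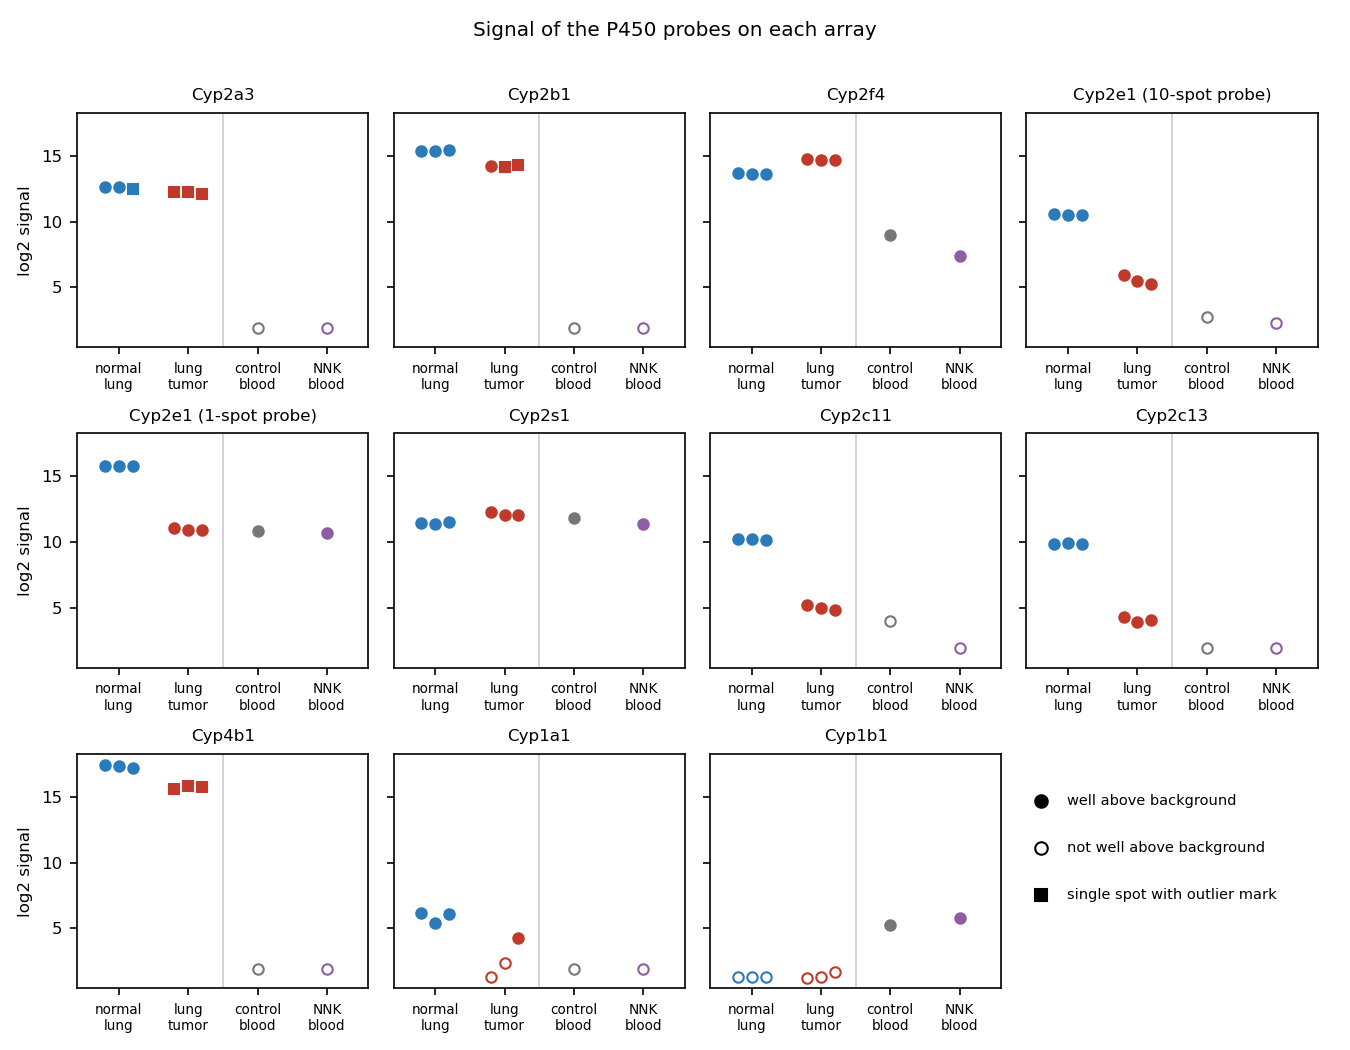
Log2 signal of each P450 probe on the 3 normal lung, 3 lung tumor and 2 blood arrays, with 1 point per array and marked spots kept. Filled symbols are well above background, open symbols are not, and squares are single spots with an outlier mark. Lung and blood were normalized separately, so levels are not comparable across the vertical line. Normal lung and tumor points do not overlap for any probe except Cyp1b1. The share of such probes over the whole array was not counted, so this is not read as a trait of the P450s.

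The widest falls were those of Cyp2e1, Cyp2c11 and Cyp2c13. Cyp2e1, the ethanol-inducible P450 that oxidizes small nitrosamines, was read by a probe printed in 10 spots and by a probe printed in 1 spot. The 10-spot probe had signals of 10.55, 10.48 and 10.46 in normal lung and 5.92, 5.48 and 5.30 in tumor, a log2 fold change of -4.93 ± 0.17 or 30.5-fold (limma, adjusted p = 1.12e-05). The 1-spot probe had signals of 15.75, 15.75 and 15.78 in normal lung and 11.09, 10.88 and 10.91 in tumor, a log2 fold change of -4.80 ± 0.072 or 27.9-fold (limma, adjusted p = 3.28e-06). On each of the 6 lung arrays both probes stood well above background, and they fell by similar amounts. Within slide 1 their differences were -4.57 and -4.68.

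Cyp2c11, the main P450 of the male rat liver and a testosterone hydroxylase, had signals of 10.20, 10.21 and 10.16 in normal lung and 5.21, 5.01 and 4.86 in tumor. Cyp2c13, another male-specific P450 of rat liver, had signals of 9.88, 9.90 and 9.86 in normal lung and 4.33, 3.97 and 4.08 in tumor. In both genes all 3 tumor arrays lay far below all 3 normal arrays and yet were well above background. Cyp2c11 was 35.8-fold lower, with a log2 fold change of -5.16 ± 0.099 (limma, adjusted p = 4.14e-06). Cyp2c13 was 53.7-fold lower, with a log2 fold change of -5.75 ± 0.1 (limma, adjusted p = 3.93e-06). Within slide 1 the differences were -4.98 for Cyp2c11 and -5.54 for Cyp2c13. The size of these falls depends on the background correction: with normexp they were -3.54 for Cyp2c11, -3.64 for Cyp2c13 and -3.88 for the 10-spot probe of Cyp2e1, and all were still called. Among the 15803 probes ordered from the widest fall, an order that includes probes not well above background in tumor, Cyp2c13 was at place 14, Cyp2c11 at 35 and the Cyp2e1 probes at 45 and 54. With near-identical arrays counted once their log2 fold changes were -4.77 to -5.70 and the adjusted p 0.0347. The Cyp2c genes are close relatives, and the sequences of the probes were not analysed here, so cross-hybridization among them was not tested.

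Cyp1a1, the enzyme induced through the aryl hydrocarbon receptor that activates polycyclic hydrocarbons, was dim. Its signals were 6.14, 5.45 and 6.08 in normal lung and 1.29, 2.35 and 4.25 in tumor, where only tumor 3 was well above background. The tumor arrays lay below the normal arrays but spread over about 3 log2 units. The log2 fold change of -3.27 ± 0.77 passed the threshold (limma, adjusted p = 0.0135), and the size of the fall depends on how signals near background are treated. With normexp background correction the fold change was -0.72 and the call was lost. With near-identical arrays counted once it was -3.60 with an adjusted p of 0.121. Cyp1b1, an extrahepatic relative that also activates polycyclic hydrocarbons, was not well above background on any lung array, with signals from 1.27 to 1.68.

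**Figure D2:**
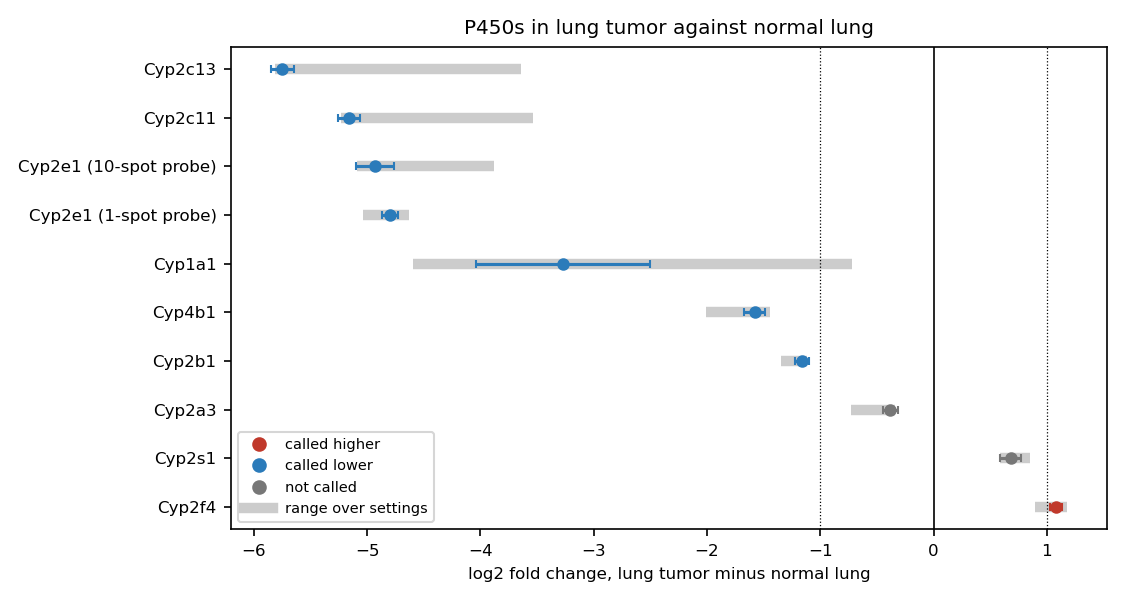
Log2 fold change of lung tumor minus normal lung for the 10 P450 probes tested, as point and standard error (n = 3 and 3 arrays, marked spots kept), with grey bars for the range over the other settings. Dotted lines mark a 2-fold change. Cyp2c13, Cyp2c11 and both Cyp2e1 probes lie below -3.5 in every setting, and Cyp2f4 is the only probe called higher.

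Other P450s were read from a list of families 1 to 4. Of 56 genes listed, 38 had a probe and 27 passed the filter. Of these 2 were called higher and 11 lower, beside 13.5% and 15.5% of all probes tested. The median log2 fold change was -0.76 beside 0.07 over all probes tested. Cyp2r1 and Cyp2g1, called higher, passed the filter only through their tumor arrays. Cyp2c7, Cyp2c12, Cyp2a2 and Cyp3a23-3a1, called lower, passed it only through their normal lung arrays. The filter fixed the direction of these genes, so their calls are no evidence of direction. The median of the list includes them and has the same limit. The falls with the lowest fitted values are named first, and where tumor signals were not well above background only a bound is given. Such bounds were not taken with other background corrections. Cyp2c7 fell from a mean signal of 9.03 to a signal not well above background, at least 55.5-fold. Cyp2b3 fell by 4.79 on the log2 scale, to 2.87, 3.01 and 3.59 in tumor. These signals were close to background and well above it on 2 of 3 arrays, so the size of this fall depends on the floor. Cyp3a18 had a log2 fold change of -4.56. Cyp3a23-3a1, a steroid-inducible enzyme, fell at least 5.46-fold, and Cyp2c12, best known from the female rat liver, fell at least 4.08-fold. Cyp4a3, Cyp4f1 and Cyp2d3 were 10.3-fold, 9.92-fold and 8.69-fold lower, with tumor signals well above background on at least 2 of 3 arrays. The level and the bound of Cyp2c12 rest mostly on normal 2, with 7.02 against 4.28 on the other normal arrays. Of the genes called higher, Cyp2r1, a vitamin D 25-hydroxylase, was at least 2.98-fold higher and Cyp2g1, an olfactory P450, at least 1.34-fold higher; neither was well above background in normal lung.

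Falls were not shared by all relatives. In the order of genes on chromosome 1, Cyp2s1, Cyp2b1, Cyp2b3, Cyp2g1, Cyp2a3, Cyp2a2 and Cyp2f4 lie in a row of 23 annotated genes. Cyp2b3 differed by -4.79, with tumor signals close to background, and Cyp2f4 by 1.08. Cyp2a2, a liver P450, was at least 3.49-fold lower, with no tumor array well above background, and Cyp2g1 at least 1.34-fold higher. The filter fixed the direction of both, so they are not read as a contrast. In the second row, from Cyp2c11 to Cyp2c13, Cyp2c6v1 had signals of 9.23, 9.23 and 8.99 in normal lung and 8.88, 8.83 and 8.95 in tumor. Its difference was -0.26 ± 0.09 and was not called, whereas Cyp2c11 and Cyp2c13, at the ends of the row, were called lower. Cyp2c7 and Cyp2c12 were called lower as well, but the filter fixed their direction. Cyp2c6v1 was also well above background on both blood arrays, which Cyp2c11, Cyp2c12 and Cyp2c13 were not.

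**Figure D3:**
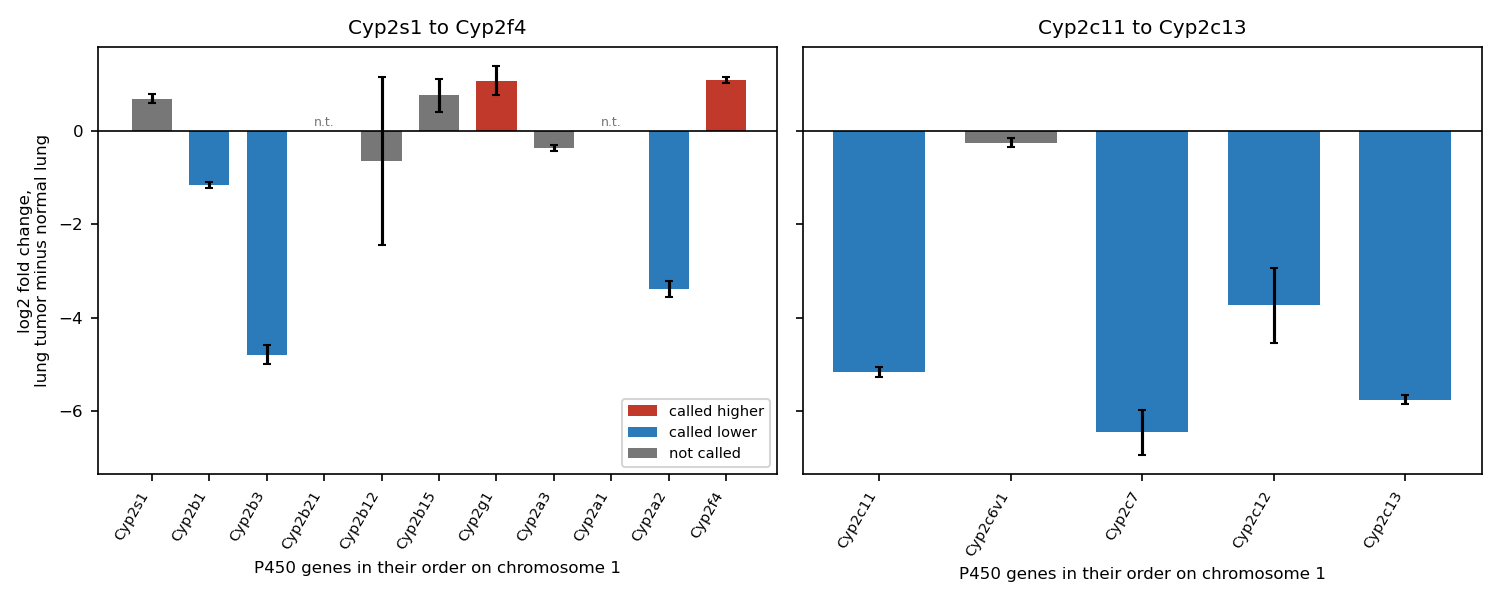
Log2 fold change (lung tumor minus normal lung, bars with standard errors, n = 3 and 3 arrays, marked spots kept) of P450 genes with a probe, in gene order along 2 stretches of chromosome 1; n.t. marks a gene that did not pass the filter. Cyp2f4 was called higher, while Cyp2b1 and Cyp2b3 of the same stretch were called lower. The calls of Cyp2g1, Cyp2a2, Cyp2c7 and Cyp2c12 had their direction fixed by the filter. For Cyp2a2, Cyp2c7 and Cyp2c12 the tumor signal was not well above background, and for Cyp2b15 and Cyp2g1 the normal signal was not, so these bars depend on the floor. The tumor signal of Cyp2b3 was close to background, so its bar does too.

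P450s of sterol, steroid, retinoid and vitamin D metabolism gave 9 tested probes, 1 called higher and 3 lower, with a median of -0.72. Over all probes tested 13.5% were called higher and 15.5% lower. Cyp7a1, Cyp8b1 and Cyp11a1 passed the filter only through the group where they were brighter, which fixed their direction, and the median includes them. Cyp8b1 and Cyp7a1, which make bile acids in liver, fell at least 6.85-fold and at least 2.02-fold to signals not well above background. Cyp26a1, which degrades retinoic acid, fell by 1.68 on the log2 scale, from a mean signal of 8.51 to 6.83, and the groups did not overlap. Cyp26b1, a related retinoic acid hydroxylase, was lower by a log2 fold change of -2.32 ± 0.064 with marked spots kept. Cyp11a1, the cholesterol side-chain cleavage enzyme, was called higher, from signals not well above background in normal lung to 4.51, 3.45 and 3.42 in tumor; since both were close to background no fold is given.

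Partners of the P450s come next. Of the electron donors and enzymes of heme supply 10 probes were tested, with a median of 0.04, and the only one called was higher. Over all probes tested 13.5% were called higher and 15.5% lower. Por, the reductase that serves the P450s above, had signals of 15.35, 15.50 and 15.53 in normal lung and 15.00, 15.06 and 15.15 in tumor, a log2 fold change of -0.39 ± 0.075 (limma, adjusted p = 0.00576) that was not called. Cyb5a, the cytochrome b5 that can pass on an electron, was at 15.88, 15.98 and 15.97 against 15.95, 16.00 and 16.01, a difference of 0.05 ± 0.055 (limma, adjusted p = 0.48). Hmox1, which degrades heme, was up-regulated 2.25-fold, from 14.96, 14.94 and 14.92 to 16.17, 16.12 and 16.02.

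Regulators of P450 genes gave 14 tested probes, 2 higher and 2 lower, with a median of 0.16. These counts are near the shares over all probes tested, 13.5% higher and 15.5% lower. Ahr, the aryl hydrocarbon receptor, and Nr1i3, the constitutive androstane receptor, stayed near background, with 0 of 6 lung arrays well above it. Arnt, the partner of Ahr, differed by -0.26 ± 0.06, and Nr1i2, the pregnane X receptor, by -0.34 ± 0.17, and neither was called. Ahrr, the repressor of Ahr, was down-regulated from 7.17, 6.91 and 7.07 to 6.05, 5.70 and 5.46, a log2 fold change of -1.31 ± 0.17. Foxa1, a pioneer factor of lung and liver, was lower by -1.16 ± 0.2. Nfix was higher by 1.28 ± 0.079, and Cebpa, a factor of liver and lung epithelium, was at least 2.16-fold higher. Cebpa passed the filter only through its tumor arrays, which fixed its direction.

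Other enzymes that activate or reduce carcinogens gave 12 tested probes, 2 higher and 3 lower, with a median of -0.06. With marked spots kept the counts were 3 and 5 of 19. Over all probes tested the shares were 13.5% higher and 15.5% lower, and 13.5% and 14.4% with marked spots kept. Of the flavin monooxygenases, which oxidize nitrogen and sulfur, Fmo1 and Fmo2 fell. Fmo2, the lung form, was at 16.98, 17.01 and 17.10 in normal lung and 13.24, 13.24 and 13.04 in tumor, a log2 fold change of -3.85 ± 0.079. The log2 fold change of Fmo1 was -2.30, and that of the aldehyde oxidase Aox1 was -1.36. The 2 probes of Fmo4 disagreed, at 0.55 and -1.04. Of the carbonyl reductases that act on NNK, Cbr1 was higher by 1.36 ± 0.097 and Hsd11b1 differed by -0.07 ± 0.05. Cbr3, their relative, rose by 2.09 ± 0.053 and the aldo-keto reductase Akr1b8 by 1.49 ± 0.11.

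**Figure D4:**
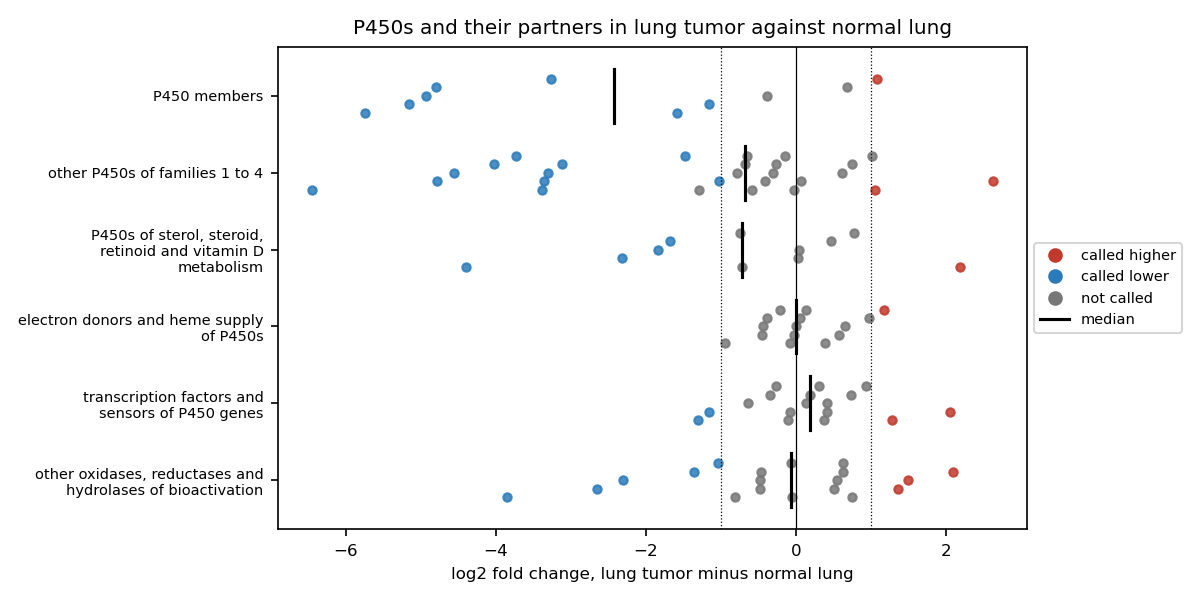
Log2 fold change of lung tumor minus normal lung for each tested probe of the P450 members and of the 5 lists of related genes, with the median as a black bar and dotted lines at a 2-fold change (marked spots kept). Called falls beyond -3 lie among the P450s, some with tumor signals not well above background, and at Fmo2. The electron donors hold 1 call among 15 probes, beside 13.5% higher and 14.4% lower over all probes.

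Cell type markers were read beside the P450s, since lung is a mixture of cells. For the marker counts here and below, 13.5% of all probes tested were called higher and 15.5% lower. With marked spots kept the shares were 13.5% and 14.4%. Among the 16 hepatocyte genes listed, 13 had 14 probes and 11 probes were tested, of which 8 were called lower and no other was called, with a median of -3.41. Alb, the serum albumin, was at 13.84, 13.85 and 13.89 in normal lung and 9.21, 10.96 and 11.16 in tumor. The log2 fold changes of Ttr, Fga and Ahsg were -5.73, -4.97 and -4.20. Fgg was not called and had a difference of 0.75. The summed signal of the list was 68400 to 71200 in normal lung and 74200 to 79800 in tumor, and without Fgg, a choice made after its values were seen, it was 24700 to 25900 against 1690 to 3440. Tat, a defining enzyme of hepatocytes, was not well above background on any lung array, and Cps1, a urea cycle enzyme, was well above it on 1 of 3 normal and 3 of 3 tumor arrays, with a difference of -0.19 that was not called. The part of these genes in the falls of Cyp2e1, Cyp2c11 and Cyp2c13 was not tested.

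Of the club cell markers, 9 of 10 genes had a probe and 6 probes were tested, 2 higher and 2 lower, with a median of -0.01. Scgb1a1, the club cell secretory protein, was at 18.10, 17.99 and 18.21 in normal lung and 18.08, 18.05 and 17.98 in tumor. Scgb3a2 was at 13.22, 13.22 and 13.11 against 13.19, 12.70 and 12.77. Bpifa1 was higher by 2.90 and Lypd2 by 3.42, while Aldh1a1 and Krt15 were lower, with -1.74 and -1.50. With marked spots kept, Scgb3a1 was higher by 3.48 as well. The summed club cell signal was 310000 to 353000 in normal lung and 414000 to 447000 in tumor. Normalized over all 8 arrays, the sums were 291000 to 367000 and 356000 to 396000, which overlapped. Gabrp was the marker not well above background on any lung array. The part of club cells in the rise of Cyp2f4 or the fall of Cyp2b1 and Cyp4b1 was not tested.

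Type 2 alveolar markers had 1 probe of 8 called, which was higher, and their summed signal was 1080000 to 1130000 in normal lung against 1330000 to 1370000 in tumor. Type 1 alveolar markers had 5 of 8 called lower, with summed signals of 1760000 to 1820000 against 579000 to 608000. Endothelial markers had 3 of 4 lower, with 280000 to 289000 against 77700 to 82700, and red blood cell markers 5 of 6 lower, with 227000 to 236000 against 132000 to 140000. Ciliated markers had 1 of 4 lower, and their summed signal was 149000 to 163000 in normal lung against 73000 to 77600 in tumor. Normalized over all 8 arrays, this sum was 196000 in control blood and 222000 in NNK blood, above 103000 to 118000 in normal lung. It is therefore not read as a measure of ciliated cells. Adipocyte markers had 1 of 4 higher, or 3 of 6 with marked spots kept, and sums of 4810 to 4990 against 12900 to 14300. Macrophage markers had 1 of 6 higher, with 196000 to 209000 against 271000 to 296000. Leukocyte markers had 1 higher and 1 lower of 5, with 384000 to 406000 against 442000 to 489000, and no smooth muscle marker of 4 was called, with 59700 to 62800 against 47900 to 59100. The part of these cells in the P450 values was not tested.

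**Figure D5:**
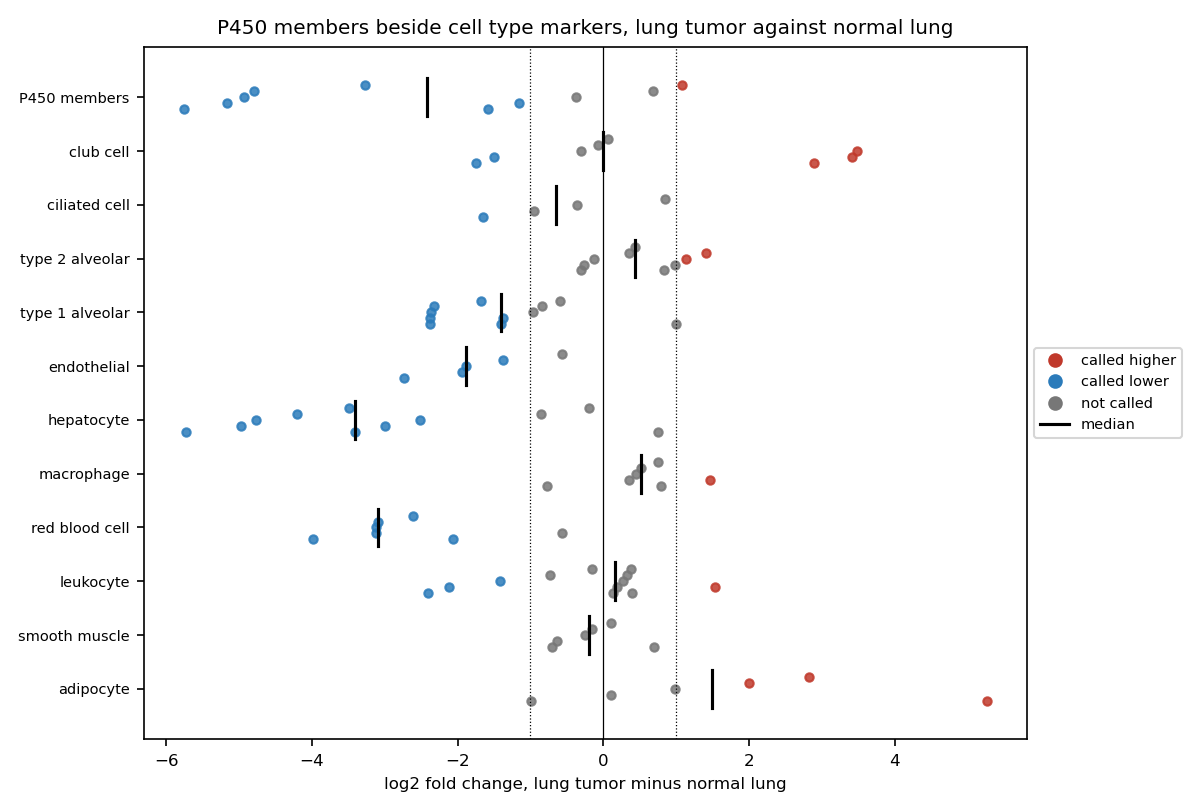
Log2 fold change of lung tumor minus normal lung for the P450 members and for the markers of 11 cell types, 1 point per tested probe with the median as a black bar (marked spots kept). Of the hepatocyte markers 8 of 11 were called lower, beside 14.4% of all probes tested, from -2.51 in Serpina1 to -5.73 in Ttr. The club cell markers lie on both sides of 0.

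In blood there was 1 array per group, so no test was possible, and values are log2 signals normalized over both blood arrays. Of the P450s, Cyp2f4, Cyp2s1, Cyp1b1 and the 1-spot probe of Cyp2e1 were well above background on both arrays, and the other 7 probes on neither. Cyp2f4 was at 8.97 in control blood and 7.40 in NNK blood, a difference of -1.57 with a scanner error of 0.207. It was the only P450 probe at least 2-fold lower, and 0 probes were at least 2-fold higher; over 14452 probes, 19.1% were at least 2-fold lower and 23.1% higher. Cyp2s1 was at 11.85 and 11.38, a difference of -0.47, and the Cyp2e1 probe at 10.87 and 10.71. Cyp1b1 was at 5.25 and 5.77, a difference of 0.52 with a scanner error of 0.272. Under other ways of processing the signals the Cyp1b1 difference ranged from 0.18 to 0.91. The summed club cell marker signal was 2490 in control blood and 868 in NNK blood, and that of leukocyte markers 32000 and 109000; their part was not tested.

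Lung and blood were set side by side after quantile normalization over all 8 arrays, as levels with no test. Of the 11 probes, 8 had a normal lung mean at least 2-fold above both blood arrays, and 46.2% of 16727 probes did so over the array. Cyp4b1 was at 17.23, 17.04 and 16.89 in normal lung and not well above background in blood. The order for Cyp2a3, Cyp2b1, Cyp4b1, Cyp2c11 and Cyp2c13 was normal lung, then tumor, then blood, although the tumor signals of Cyp2c11, 4.72 to 5.04, lay close to 4.39 in control blood, which was not well above background. Cyp1a1 was brightest in normal lung, and its tumor and blood signals could not be ordered, since most were near background. For Cyp2f4 the order was tumor at 13.74 to 13.90, normal lung at 12.63 to 12.65, control blood at 11.97 and NNK blood at 9.96. The distance of blood from lung depends on the scaling. The processed signals of Cyp2f4 before normalization were 24100 to 27900 in tumor, 13000 to 14300 in normal lung, 378 in control blood and 244 in NNK blood. For Cyp2s1 the order of blood and lung depends on the scaling. Normalized over all arrays it was at 14.31 and 13.97 in blood, 11.05 to 11.32 in tumor and 10.46 to 10.59 in normal lung, while the processed signals before normalization were 3420 and 2940 in blood, 3990 to 5010 in tumor and 2800 to 2860 in normal lung. Cyp1b1 was at 6.16 and 7.06 in blood and not well above background in lung. The Cyp2e1 probes disagreed in blood: the 1-spot probe was well above background on both arrays and the 10-spot probe on neither. The 1-spot probe was at 13.60 and 13.49 in blood and 10.02 to 10.20 in tumor, but its processed signals before normalization, 1620 and 1960 in blood and 1880 to 2120 in tumor, overlapped.

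The genes whose pattern over the 8 arrays was most like each P450 are given as a description, since lung, tumor and blood set most of each correlation and the 8 arrays share tissues and slides. The 2 closest of 11172 mRNA probes to Cyp2f4 were Krt18 (r = 0.9986), a keratin of simple epithelia, and Mgst2 (r = 0.9980). Those closest to Cyp2c11 were Serpinb10 (r = 0.9990) and Mlc1 (r = 0.9985), and to Cyp2c13 Slc39a8 (r = 0.9970) and Wfdc18 (r = 0.9968). The 10-spot probe of Cyp2e1 was closest to Plagl1 and Slain2 (r = 0.9989 each) and the 1-spot probe to Add1 (r = 0.9944) and Cdo1 (r = 0.9926). Cyp1a1 was closest to Ces1c (r = 0.9793) and Serpina6 (r = 0.9644), the latter the corticosteroid carrier of plasma, and only 4 probes had an r above 0.95 with it. Other members had more probes like them: 3162 had an r above 0.95 with Cyp2a3, whose closest were Ttpa and Gfra1, and 2898 with Cyp4b1, whose closest were Kitlg and Sult1b1. For Cyp2b1, with Peli2 and Errfi1, the number was 3005, and for Cyp2s1, with Pax8 and Asl, it was 1493.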

How the data were processed

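Each of the 8 samples was hybridized to 1 array. Per the labels, the deposited intensities came from Agilent Feature Extraction 10.5.1.1. That software had subtracted the background from the processed signals, which were left without scaling across arrays. A deposited table of log2 values, quantile-normalized over all 8 arrays in GeneSpring by the authors, served as an alternative. Their low-intensity filter was not applied in that table. Genome build and probe sequences are not given in the sources used here.

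Log2 processed signals of 42136 spots were quantile-normalized within the 6 lung and within the 2 blood arrays with limma 3.58.1 in R 4.3.3. Spots with an outlier mark were left out and spots of a probe averaged. A probe counted as well above background where the software said so of over 50% of its spots. It was tested if that held on at least 3 of the 6 lung arrays and if at least 2 values per group remained. Lung tumor was compared with normal lung by limma (two-sided, Benjamini-Hochberg over all probes). For blood at least 1 of the 2 arrays had to be well above background. Where all arrays of 1 group were near background, a fold is given as "at least": the mean of the brighter group over the higher, on each array of the dim group, of the lowest signal well above background and the probe's own. Such a fold is not a detection limit, and other background corrections could change it. No spot was saturated.

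Symbols were taken from RefSeq (GRCr8) through accessions: 14274 of 15323 mRNA probes matched. Named were all 10 P450s, up to 5 rises and 5 falls per list among called probes with non-overlapping groups, 8 partners whatever their values (Por, Cyb5a, Ahr, Arnt, Nr1i2, Nr1i3, Hsd11b1 and Cbr1), and the 2 most correlated mRNA probes per P450; an item that this rule would name is not reported here. Cyp2c6v1, Cyp2a2, Cyp4a3, Cyp4f1, Cyp2d3 and the marker genes given with values were chosen after their values were seen. The members and lists were chosen with earlier results of these data known. Nothing in the labels says that the samples of a group came from separate rats, so p-values measure the spread between these arrays. The number of arrays limits the precision. The limma step was tested on simulated data. Figures were drawn with matplotlib.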

Additional observations from a re-analysis of the deposited data

How the results depend on the processing

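No P450 changed direction under any setting, and of 195 values of P450s under alternatives 185 kept their side of the threshold and 10 lost the call, all of them of Cyp2f4, Cyp2b1 or Cyp1a1. Besides the losses given above, the methods' paired t-test on the arrays gave Cyp1a1 an adjusted p of 0.113. Cyp2c13 ranged from -5.81 to -3.64 and Cyp2c11 from -5.23 to -3.54, each smallest with normexp.

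Leaving out 1 lung array at a time left the member counts at 1 higher and 5 lower. The P450s called higher became 0, from 1, with a 75th percentile shift and with near-identical arrays counted once, each with marked spots left out or, chosen after seeing the data, kept. In the 5 lists of related genes, 8 probes were called higher and 19 lower; normexp gave 4 and 9, the stricter filter 4 and 11, and near-identical arrays counted once 2 higher. Over all probes, 1683 higher and 1929 lower became 967 and 1256 with normexp, 778 and 976 with near-identical arrays counted once, and 1090 higher with the paired t-test. The cause of these moves was not tested. In blood a 75th percentile shift gave 2 P450 probes at least 2-fold lower in place of 1, the second being Cyp2s1 at -1.33, and the Cyp2f4 difference ranged from -2.01 to -1.18.

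The labels call the tumors matched and number both tissues 1 to 3. Deviations of same-numbered arrays correlated at 0.143, -0.0406 and 0.16. The normal arrays differed from each other by less than the spot noise, so these values can neither show nor exclude a pairing. Normal 3 correlated alike with tumor 2, at 0.14, and with tumor 3, at 0.16, which share slide 2. The main fit did not use the numbers as pairs, and a block on them served as an alternative. With the replicate number as a block, limma called 1 P450 probe higher and 5 lower, 7 and 19 list probes and 1614 and 1942 of all probes, and no P450 call changed. The methods' t-test called 1 P450 probe higher and 5 lower, at unadjusted and at adjusted p, and 1631 and 1898 of all probes unadjusted or 1545 and 1830 adjusted. Signal over background limits Cyp1a1 and Cyp1b1 in lung.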
